A study of Mus musculus with 6 samples.

Results

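Transcripts of the ErbB receptor family and of its EGF-like ligands were followed in epithelial cells sorted from mouse small intestinal crypts. The members were 10 genes of the 28564 in the count table, found by matching Ensembl identifiers to symbols: the receptor genes Egfr, Erbb2 and Erbb3, and the ligand genes Areg, Ereg, Epgn, Hbegf, Btc, Egf and Tgfa. Their identifiers are, in that order, ENSMUSG00000020122, ENSMUSG00000062312, ENSMUSG00000018166, ENSMUSG00000029378, ENSMUSG00000029377, ENSMUSG00000035020, ENSMUSG00000024486, ENSMUSG00000082361, ENSMUSG00000028017 and ENSMUSG00000029999. Crypts, the glands at the base of the villi, house stem cells, transit-amplifying cells and Paneth cells. ErbB receptors are cell surface proteins that pair up when a ligand binds, phosphorylate each other through a tyrosine kinase and pass the signal on through RAS and ERK and through PI3 kinase and AKT. Erbb2 has no known ligand of its own and acts as a partner, and Erbb3 has a weak kinase and signals in pairs with other receptors. The ligands are made as membrane-anchored precursors and are cut free by ADAM proteases. EGF is a standard component of the medium in which intestinal organoids are grown, and ErbB signalling is known to drive division in crypts.

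Donor animals were 13-week-old males, and sorting kept live single cells with EpCAM and CD44 on their surface and without CD31 or CD45. There were 3 samples of wild-type control mice (C57Bl/6) and 3 of Apln-/- mice, which lack the gene for apelin, a secreted peptide; the comparison asks how crypt epithelium differs without it. The sources used here do not say how the Apln allele was made, on which background it was kept or whether a sample is 1 animal, so the p-values measure the spread between these samples. Libraries are numbered 1 to 3 within each genotype.

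Library totals were 23046880 to 26513481 counts. Outside the 5 most abundant entries lay 6037237 to 7616648 counts in wild type and 5144725 to 5623112 in Apln-/-, with no overlap. The 5 entries held 70.7% to 75.3% of counts in wild type and 77.3% to 78.9% in Apln-/-. CPM below are counts scaled to library size with TMM factors (1.03 to 1.20 in wild type, 0.841 to 0.919 in Apln-/-). A gene with no count can lie anywhere up to 3 counts (counting error only). That is 0.0946 to 0.119 CPM in wild type and 0.138 to 0.142 CPM in Apln-/-. Apln had 29, 7 and 5 counts in the wild-type libraries and 0 in each Apln-/- library. The sort genes Epcam (25314 and 19872 counts over wild type and Apln-/-) and Cd44 (4967 and 3989) were far above Ptprc (236 and 91), which encodes CD45, and Pecam1 (46 and 21), which encodes CD31. Summed tuft cell markers were at 81.7 to 114 CPM in wild type and 29.3 to 64.6 in Apln-/-. Summed enteroendocrine markers were at 658 to 916 and 378 to 508, and summed markers of dividing cells at 504 to 608 and 392 to 457. Of the 5 markers of dividing cells only Mki67 was lower in Apln-/- (mean 355 CPM in wild type and 201 in Apln-/-). The fold change was positive for the other 4, and the list median was 0.19 in log2 units. The part of all such cells in the results below was not tested. Fold changes followed transcript length: the median log2 fold change (Apln-/- over wild type) was -0.19 for genes of 5886 nucleotides and over and 0.25 for genes of up to 1094.

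Of the 7 ligand genes, 4 lie next to one another on chromosome 5 (mm10), in the order Epgn, Ereg, Areg and Btc, within 375.5 kb from 91027464 to 91402994. The gaps are 39.4 kb between Epgn and Ereg, 46.0 kb between Ereg and Areg and 208.8 kb between Areg and Btc, and the table has 1 gene inside them, between Areg and Btc, which is not protein-coding. Btc is on the minus strand and the other 3 are on the plus strand. Egfr (16752203 to 16918158) and Erbb2 (98412470 to 98437716) are both on the plus strand of chromosome 11, Erbb3 (128567523 to 128589652) is on the minus strand of chromosome 10, Egf (129677565 to 129755316) on the minus strand of chromosome 3 and Tgfa (86195223 to 86275719) on the plus strand of chromosome 6. Exons of Egf overlap those of Gm42697 and 6330410L21Rik on the other strand, by 607 and 500 nucleotides. Exons of Ereg overlap Gm19610 by 141, those of Tgfa overlap Gm43917 by 118 and those of Erbb2 overlap Mien1 by 9 nucleotides, each on the other strand. The sources used here do not say whether counting used strand, so reads there cannot be told apart. Gm42697 and 6330410L21Rik had 0 to 4 counts per library, Gm19610 0 to 9 and Gm43917 2 to 8, while Mien1 had 203 to 365.

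To show what precedes the start of ligands at both ends of the range, and of receptors, given here are the 250 bases before the start of Areg, the ligand of the chromosome 5 group with the highest level, of Epgn, the member with counts in the fewest libraries, and of the receptors Egfr and Erbb2, whose groups overlapped. They come from RefSeq (GRCm38.p6) and run 5′ to 3′ along the gene. Windows of 7 of the 10 members were used, and none of Erbb3, Ereg and Hbegf. Capitals mark matches on either strand to the TATA box (TATAAA), the cyclic AMP response element (TGACGTCA), the AP-1 site (TGANTCA), the GC box (GGGCGG), the E-box (CACGTG) or the EGR site (GCGTGGGCG). The windows are chr5:91139349-91139598, plus strand for Areg, chr5:91027267-91027516, plus strand for Epgn, chr11:16751953-16752202, plus strand for Egfr and chr11:98412234-98412483, plus strand for Erbb2. They end at the RefSeq start, which for Areg and Egfr is the first base of the annotated gene given above and for Epgn and Erbb2 lies 53 and 14 bases inside it.
Areg: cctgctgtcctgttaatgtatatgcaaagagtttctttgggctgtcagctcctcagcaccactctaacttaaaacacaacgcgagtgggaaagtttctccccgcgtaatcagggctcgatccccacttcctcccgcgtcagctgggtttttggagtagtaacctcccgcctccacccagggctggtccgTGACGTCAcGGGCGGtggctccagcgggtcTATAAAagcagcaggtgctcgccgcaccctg
Epgn: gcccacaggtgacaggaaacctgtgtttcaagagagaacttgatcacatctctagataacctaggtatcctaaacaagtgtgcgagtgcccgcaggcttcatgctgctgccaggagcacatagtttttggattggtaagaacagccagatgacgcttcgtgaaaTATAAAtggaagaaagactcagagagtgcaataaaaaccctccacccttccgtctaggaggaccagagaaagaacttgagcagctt
Egfr: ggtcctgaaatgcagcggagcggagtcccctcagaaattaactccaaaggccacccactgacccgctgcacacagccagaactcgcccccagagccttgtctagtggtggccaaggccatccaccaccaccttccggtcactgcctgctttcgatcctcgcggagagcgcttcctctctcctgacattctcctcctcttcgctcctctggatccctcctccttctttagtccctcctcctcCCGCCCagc
Erbb2: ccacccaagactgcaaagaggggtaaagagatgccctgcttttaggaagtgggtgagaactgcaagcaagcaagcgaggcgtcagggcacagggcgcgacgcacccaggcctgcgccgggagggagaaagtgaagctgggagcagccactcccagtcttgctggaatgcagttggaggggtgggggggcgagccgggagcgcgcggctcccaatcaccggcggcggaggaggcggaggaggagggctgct
The Areg window held a cyclic AMP response element whose first base is 61 bases before the start, a GC box at 52 and a TATA box at 31, with no overlap between them. The Epgn window held a TATA box at 86 bases, the Egfr window a GC box at 9 bases, and the Erbb2 window 0 matches. Of the other members, Tgfa had 2 GC boxes, and the windows of Btc and Egf had 0 matches. Over all 32851 windows of this length, 12.37% held the TATA box, 1.55% the cyclic AMP response element, 6.75% the AP-1 site, 32.74% the GC box, 6.02% the E-box and 0.54% the EGR site. GC content was 66.0% for Erbb2, 60.8% for Egfr, 57.2% for Areg and 46.8% for Epgn, where the median of all windows was 52.4%. These are matches of letters, not measured binding.

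Per kb of transcript, Erbb3 was the most abundant member, Erbb2 and the ligands Hbegf and Areg came next, and Egfr lay below these. In CPM not divided by length, Egfr (18.1 to 24.1 CPM) lay above Areg (2.94 to 10.3 CPM), so the place of Egfr depends on this division. To compare genes, CPM were divided by the length in kb of the longest annotated transcript. On this scale Erbb3 had a level of 12.5 ± 0.795 CPM per kb in wild type and 11.8 ± 0.498 in Apln-/- (SD, n = 3 each, as for all groups here). Erbb2 had 8.11 ± 0.526 and 7.52 ± 0.589 CPM per kb, and Egfr 1.98 ± 0.334 and 1.93 ± 0.233. Erbb3 was thus 6.38 ± 0.919 times as abundant per kb as Egfr in wild type and 6.13 ± 0.452 times in Apln-/-. Of the fourth receptor gene, Erbb4, the 6 libraries held 1 count in all. Among the ligands, Hbegf, a heparin-binding factor, had 4.80 ± 1.14 CPM per kb in wild type and 8.42 ± 2.37 in Apln-/-. Areg, which encodes amphiregulin, had 4.16 ± 2.14 and 7.12 ± 2.13 CPM per kb. Tgfa followed with 1.27 ± 0.190 and 1.54 ± 0.421, Btc (betacellulin) with 0.515 ± 0.331 and 0.713 ± 0.178, and Ereg (epiregulin) with 0.594 ± 0.241 and 0.272 ± 0.0447. Egf itself reached 0.109 ± 0.0811 and 0.232 ± 0.0912 CPM per kb. Nrg4, a neuregulin that binds Erbb4 and is no member here, had 2.10 ± 0.109 and 2.14 ± 0.409.

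The order compared here includes Nrg4, which stands between Areg and Egfr. The ranges over the 6 libraries were apart for these neighbours in that order only: Erbb3 (11.5 to 12.9 CPM per kb) from Erbb2 (6.94 to 8.64), and Tgfa (1.06 to 1.94) from Btc (0.305 to 0.908). With Nrg4 left out, Areg (2.42 to 8.49) and Egfr (1.77 to 2.36) are neighbours too, and their ranges were apart. All other neighbours in the order with Nrg4 overlapped. Over both genotypes the order of Erbb2, Hbegf and Areg, and that of Btc, Ereg, Egf and Epgn, is thus not fixed beyond the spread. Within wild type, Erbb2 (7.59 to 8.64 CPM per kb) lay above Hbegf (3.50 to 5.63) and Areg (2.42 to 6.54). Within Apln-/- Erbb2 overlapped both. With the length of all merged exons in place of the longest transcript, the order changed in places. Areg (mean of 6 libraries 5.64 CPM per kb) then stood above Hbegf (3.95), Egfr (1.76) and Tgfa (0.979) above Nrg4 (0.732), and Epgn (0.0745) above Egf (0.0719).

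**Figure D1:**
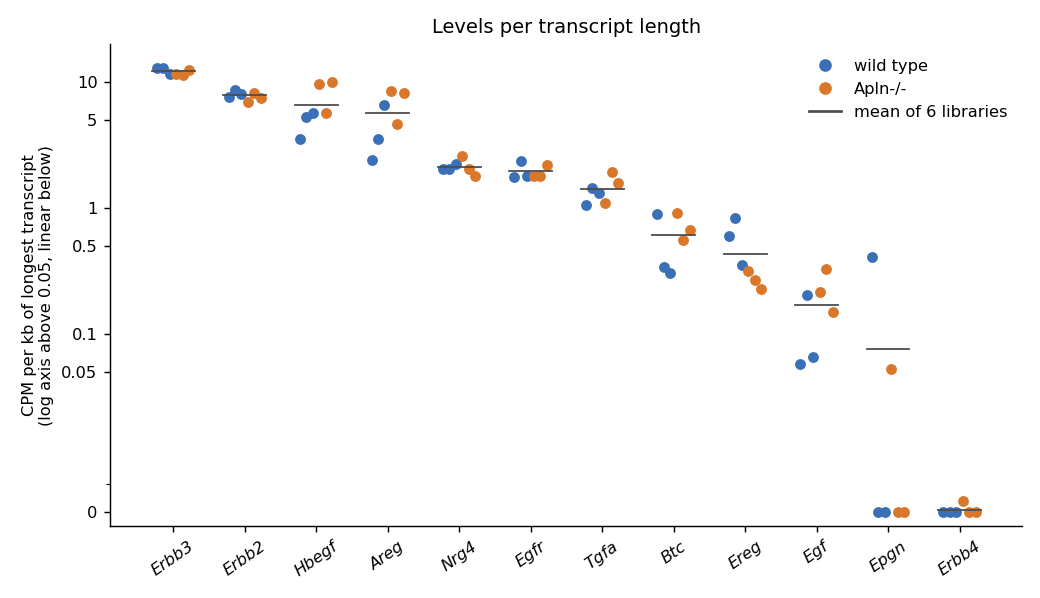
Level of each member and of Erbb4 and Nrg4 in CPM per kb of the longest transcript, on an axis that is logarithmic above 0.05 and linear below. Points are libraries (blue wild type, orange Apln-/-) and bars the mean of 6 libraries, which among the members falls from 12.1 for Erbb3 to 0.0765 for Epgn, which was at 0 in 4 of the 6 libraries.

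No difference between the genotypes beyond the spread of the replicates was detected for the 3 receptor genes. Erbb3 was at 77.7, 77.7 and 69.4 CPM in the wild-type libraries and at 69.1, 68.9 and 74.2 CPM in the Apln-/- libraries. Erbb2 was at 38.1, 43.3 and 40.5 CPM in wild type and at 34.8, 40.7 and 37.5 CPM in Apln-/-. Egfr was at 18.1, 24.1 and 18.4 CPM in wild type and at 18.5, 18.2 and 22.4 CPM in Apln-/-. The groups overlapped for each of them, and for Egfr the highest value of either group came from a single library, wild-type 2 and Apln-/- 3. The log2 fold change (Apln-/- over wild type) was -0.08 ± 0.14 (SE) for Erbb3, -0.11 ± 0.14 for Erbb2 and -0.04 ± 0.18 for Egfr. Their adjusted p-values were 0.828, 0.770 and 0.952 (edgeR's quasi-likelihood test, Benjamini-Hochberg adjustment over 15122 genes). The 95% interval of the fold ran from 0.767 to 1.16 for Erbb3, from 0.747 to 1.15 for Erbb2 and from 0.745 to 1.28 for Egfr. All 3 transcripts are long (6016, 5012 and 10208 nucleotides), and adjusting each library for length and GC turned the sign of each, to 0.0629, 0.0726 and 0.12, with adjusted p-values of 0.895, 0.883 and 0.820 in the same edgeR test.

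Ratios within a library do not depend on the scaling, and they were close to each other in both genotypes. Erbb3 to Erbb2 was 1.54 ± 0.143 per kb in wild type and 1.57 ± 0.139 in Apln-/-, and Erbb2 to Egfr was 4.14 ± 0.433 and 3.93 ± 0.584. The log2 differences of the 3 ratios lay between -0.08 and 0.03, with two-sided exact permutation p-values of 0.7 for Erbb2 to Egfr, 0.9 for Erbb3 to Egfr and 1 for Erbb3 to Erbb2, each 1 when adjusted over the 3. With 3 against 3 the smallest p is 0.1. Erbb3 held 53.8% to 58.0% of the summed receptor level per kb in wild type and 53.6% to 56.8% in Apln-/-, and Egfr 7.94% to 9.89% and 8.34% to 9.99%.

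**Figure D2:**
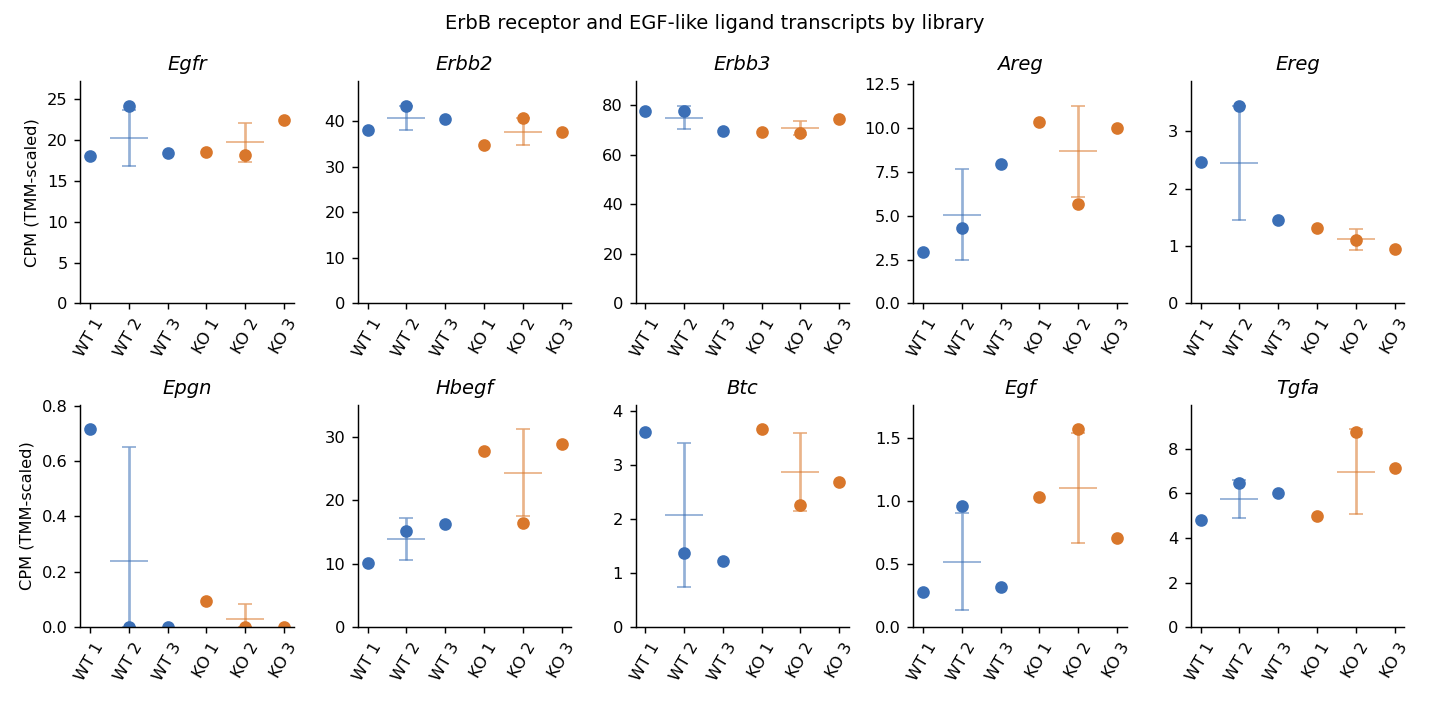
CPM of each member in each library on axes that start at 0, with group means and SD (n = 3) as bars. The receptors lie level across the libraries, Hbegf runs from 10.1 to 28.8 CPM, and Ereg is at or below 1.31 CPM in every Apln-/- library.

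Among the ligands, Hbegf and Areg had higher and Ereg lower mean values in Apln-/- cells, and none of the 9 tested members passed edgeR's test over all genes. With edgeR's quasi-likelihood test 0 of the 9 tested members had an adjusted p under 0.05, where 0.172% of all genes tested did (0.112% higher and 0.0595% lower in Apln-/-). An unadjusted p under 0.05 was found for 3 (Hbegf and Areg higher, Ereg lower), where 15.2% of all genes had one (7.53% higher and 7.66% lower). The fold change was positive for 5 of the 6 tested ligands and negative for Ereg and the 3 receptors, where it was positive for 49.5% and negative for 50.5% of all genes. Epgn was too low to be tested. DESeq2's Wald test called 1 member, Hbegf, where it called 3.84% of all genes, and limma-voom, which called 0.37%, called 0 members. edgeR without a filter on low counts called Hbegf alone among the members and 2.2% of all genes.

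Hbegf was at 10.1, 15.2 and 16.3 CPM in the wild-type libraries and at 27.7, 16.4 and 28.8 CPM in the Apln-/- libraries. Apln-/- libraries 1 and 3 stood well above every wild-type library, while Apln-/- library 2 was level with the highest wild-type library, at 16.43 against 16.27 CPM. That gap is smaller than the shift between scalings: with RLE size factors the same values were 16.29 and 16.37 and the groups overlapped. The fold was 1.75 (95% interval 1.22 to 2.52), or 0.81 ± 0.24 (SE) in log2 units; the unadjusted p was 0.00555 and the adjusted p 0.150 by edgeR. The adjusted p was 0.0390 with DESeq2 and 0.00482 in edgeR without the filter, and over all 16 alternatives it lay between 0.00482 and 0.557, with log2 fold changes from 0.61 to 1.03. Hbegf encodes a ligand that is bound by heparan sulphate chains and is an early transcriptional target of RAS and ERK signalling in many cells.

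Areg was at 2.94, 4.27 and 7.95 CPM in wild type and at 10.3, 5.68 and 9.97 CPM in Apln-/-. The same Apln-/- libraries, 1 and 3, were high, and Apln-/- library 2 lay below wild-type library 3, so the groups overlapped. The log2 fold change was 0.77 ± 0.35 (SE); the unadjusted p was 0.0484 and the adjusted p 0.326 by edgeR. It was 1.26 without wild-type library 3 (adjusted p = 0.0630), 0.49 without wild-type library 1 (adjusted p = 0.542) and 0.55 after adjusting for length and GC (adjusted p = 0.566), and over all alternatives the adjusted p lay between 0.0630 and 0.716. Summed over 7 Paneth cell markers, the level was 1006, 644 and 1014 CPM in wild type and 2557, 1075 and 1638 CPM in Apln-/-, and over 5 stem cell markers it was 1090, 1098 and 715 CPM in wild type and 1531, 776 and 1212 CPM in Apln-/-. Both sums, like Hbegf and Areg, were highest in Apln-/- libraries 1 and 3. So were the single markers of both lists except Lgr5 and Ang4. The stem cell marker Lgr5 was at 37.5, 35.5 and 26.1 CPM in wild type and at 38.6, 25.7 and 34.7 CPM in Apln-/-. The Paneth cell marker Ang4 was at 107, 75.6 and 193 CPM in wild type and at 213, 78.1 and 134 CPM in Apln-/-. The part of these cells in the values of the ligands was not tested. Areg has a short transcript of 1215 nucleotides, and genes of 1095 to 1800 nucleotides had a median log2 fold change of 0.17.

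Ereg, the neighbour of Areg on chromosome 5, had a negative fold change. It was at 2.46, 3.44 and 1.45 CPM in wild type and at 1.31, 1.11 and 0.945 CPM in Apln-/-, from 46 to 100 and 20 to 28 counts per library. The groups did not overlap, also with the other scalings, although wild-type library 3 was near the Apln-/- libraries. The fold was 0.459 (95% interval 0.234 to 0.901), or -1.12 ± 0.45 (SE) in log2 units; the unadjusted p was 0.0270 and the adjusted p 0.260 by edgeR. Over the alternatives it lay between -1.39 and -0.80, with adjusted p-values from 0.0987 to 0.588 (DESeq2 gave none), and was nearest to 0 without wild-type library 2. Of the 9 tested members, the groups of 2, Hbegf and Ereg, did not overlap, where 20.9% of all genes tested did not (11.3% higher and 9.56% lower in Apln-/-).

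The other 3 tested ligands had unadjusted p-values above 0.05. Tgfa was at 4.80, 6.47 and 5.99 CPM in wild type and at 4.97, 8.77 and 7.14 CPM in Apln-/- (log2 fold change 0.27 ± 0.26, SE; adjusted p = 0.674 by edgeR). Btc was at 3.61, 1.38 and 1.23 CPM in wild type and at 3.66, 2.26 and 2.69 CPM in Apln-/- (0.48 ± 0.45; adjusted p = 0.668). For Btc wild-type library 1 stood at the level of the highest Apln-/- library, and without it the log2 fold change was 1.12 with an adjusted p of 0.246 by edgeR. Without wild-type library 3 it was 0.21, and without wild-type library 2 or Apln-/- library 1 it was 0.25 or 0.27. Egf was at 0.278, 0.964 and 0.315 CPM in wild type and at 1.03, 1.57 and 0.709 CPM in Apln-/-, from 7 to 34 counts per library. Its log2 fold change was 1.08 ± 0.67 (SE; adjusted p = 0.484 by edgeR), and 1.86 without wild-type library 2 (adjusted p = 0.274). Paneth cells are a known source of EGF and TGF alpha in crypts. Within the Apln-/- group, Egf and Tgfa were highest in library 2, where the Paneth cell marker sum given above was lowest. The part of Paneth cells in the values of Egf and Tgfa was not tested. Such a sum cannot tell fewer or more cells of a type from less or more RNA per cell, and this holds for every level here.

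Epgn, which encodes epigen, was close to the limit of detection. It had 18 counts in wild-type library 1, 2 in Apln-/- library 1 and 0 in the other 4 libraries. Wild-type library 1, which held most of its counts, also had the highest summed level of 8 mesenchymal markers, 33.0 CPM, where the other libraries had 1.89 to 24.4, and of the 9 measured blood cell markers, 8.89 CPM, where the others had 2.88 to 6.82. All 8 mesenchymal markers had counts in both genotypes, and of the blood cell markers Adgre1 had 0 counts in wild type and 1 in Apln-/-. Summed endothelial markers were at 1.01 to 4.24 CPM in wild type and 0.600 to 1.13 in Apln-/- for 5 measured genes, of which Cdh5 had 0 and 1 counts. Of 5 measured markers of mast cells and innate lymphoid cells, Mcpt1 had 12 counts, all in wild-type library 1, and Gata3 had 0 counts in wild type and 4 in Apln-/-; their sum was 24.2 to 34.1 CPM in wild type and 12.3 to 19.98 in Apln-/-. Nearly all of that sum was Kit, at 32.1, 22.5 and 27.6 CPM in wild type and 18.7, 11.6 and 15.8 CPM in Apln-/-. The part of other cells in the counts of Epgn and of the other ligands was not tested.

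Summed per kb, the 7 ligands reached 8.93, 11.6 and 14.2 CPM per kb in the wild-type libraries and 20.7, 13.5 and 20.8 in the Apln-/- libraries. The summed receptors were at 22.3, 23.9 and 21.4 CPM per kb in wild type and at 20.2, 21.4 and 22.02 in Apln-/-. The ratio of receptor to ligand transcripts per kb was therefore 2.49, 2.06 and 1.51 in wild type and 0.979, 1.59 and 1.06 in Apln-/-. Apln-/- library 2 and wild-type library 3 overlapped in these sums. Receptor transcripts (5012 to 10208 nucleotides) are longer than those of Hbegf (2890) and Areg (1215), and fold changes fell with transcript length. Once libraries were adjusted for length and GC, receptors had positive values in log2 units (0.0629 to 0.12). Hbegf then went from 0.81 to 0.76 and Areg from 0.77 to 0.55. The part of transcript length in the ratio of receptors to ligands was not tested. Hbegf made up 39.2% to 45.4% of the ligand sum in wild type and 42.3% to 47.9% in Apln-/-, and Areg 27.0% to 46.0% and 34.7% to 41.1%. These shares depend on the use of the longest transcript. With merged exon length the mean of Hbegf (2.87 CPM per kb in wild type and 5.03 in Apln-/-) lay below that of Areg (4.16 and 7.12). Ereg made up 2.47% to 7.20% in wild type and 1.10% to 1.99% in Apln-/-.

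**Figure D3:**
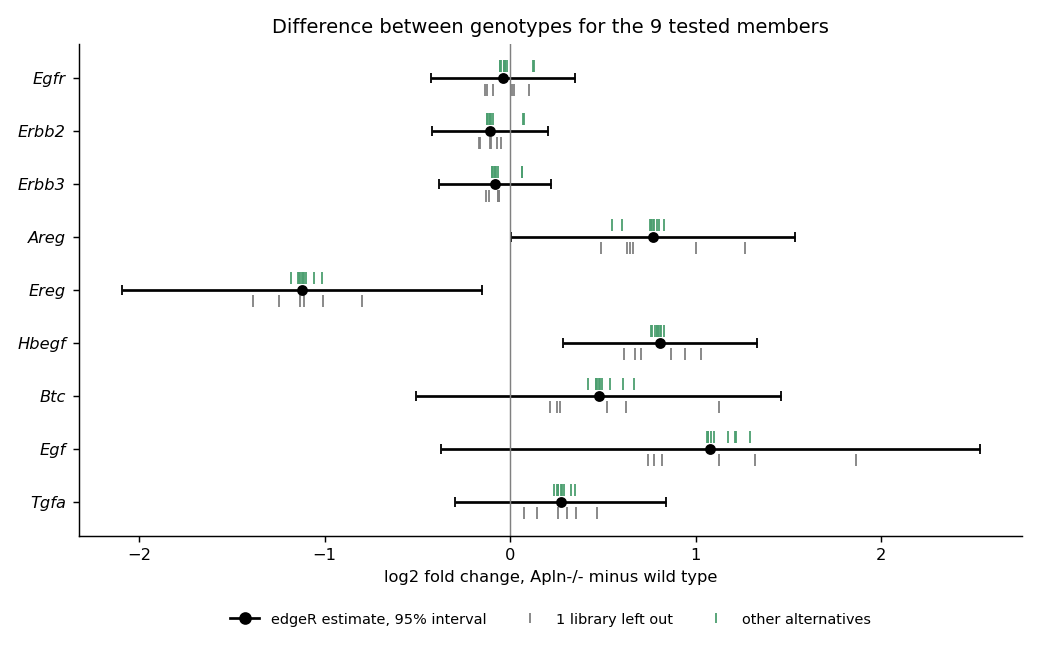
Log2 fold change (Apln-/- minus wild type) of the 9 tested members with its 95% interval, and the values with 1 library left out (grey) or under the other alternatives (green). The receptor intervals are narrow around 0, those of Hbegf, Areg and Ereg lie on 1 side of 0 before adjustment over all genes, and Egf has the widest.

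The genes that act with these receptors were read from lists by role, and 0 of the 74 tested passed edgeR's test over all genes (0 by limma-voom, 4 by DESeq2, and 8 of 78 by edgeR without the filter). An unadjusted p under 0.05 was seen for 12 of them (16.2%), near the 15.2% of all genes tested, and the groups did not overlap for 16 (21.6%, where 20.9% of all genes did not). Of these 4 were higher (5.41%, against 11.3% of all genes) and 12 lower in Apln-/- (16.2%, against 9.56%). Of the ADAM proteases that cut ligands free and the iRhoms that assist them, 5 were tested, 1 with a positive and 4 with a negative fold change, and the median log2 fold change was -0.07, where that of all genes tested was -0.01. Adam17, the main sheddase of Areg, Ereg, Hbegf and Tgfa, had a log2 fold change of 0.12 ± 0.24 (SE) and Rhbdf2, which carries it to the cell surface, one of -0.33 ± 0.29, with adjusted p-values of 0.855 and 0.633 by edgeR. The neuregulin gene Nrg4 had 0.03 ± 0.26 (adjusted p = 0.976), and Nrg1, Nrg2 and Nrg3 were not analysed here.

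Of the 26 genes of adaptors and signal relay, 10 had a positive and 16 a negative fold change, with a median log2 fold change of -0.13, or -0.00758 after adjusting for length and GC. Stat3, a transcription factor activated by cytokine and ErbB receptors, was at 24.1, 39.5 and 21.9 CPM in wild type and at 9.10, 19.5 and 14.0 CPM in Apln-/-. Every Apln-/- library was below every wild-type library, and the log2 fold change was -1.01 ± 0.28 (SE; adjusted p = 0.129 by edgeR and 0.0107 by DESeq2). Araf, a RAF kinase gene of the ERK cascade, was at 22.8, 20.4 and 18.9 CPM in wild type and at 14.3, 11.8 and 14.6 CPM in Apln-/-. Its groups did not overlap either, with a log2 fold change of -0.61 ± 0.17 and an adjusted p of 0.132 by edgeR and 0.0361 by DESeq2.

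Of the 19 feedback inhibitors and genes of receptor turnover, 9 had a positive and 10 a negative fold change, with a median log2 fold change of -0.07 that became 0.21 without wild-type library 2. Errfi1, an inhibitor that binds the kinase of ErbB receptors and is made in response to their signal, was at 22.6, 28.4 and 16.2 CPM in wild type and at 39.6, 28.6 and 41.5 CPM in Apln-/-. Apln-/- libraries 1 and 3 were again the high ones, and library 2 (28.56 CPM) was level with wild-type library 2 (28.41 CPM). The log2 fold change of Errfi1 was 0.71 ± 0.21 (SE; adjusted p = 0.155 by edgeR and 0.0462 by DESeq2). Cbl, a ubiquitin ligase that sends active ErbB receptors to degradation, was at 28.3, 45.2 and 31.8 CPM in wild type and at 22.7, 24.3 and 24.0 CPM in Apln-/-. The groups did not overlap, and the log2 fold change was -0.57 ± 0.18 (adjusted p = 0.175 by edgeR).

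Of the 8 tested ERK-responsive genes, 4 had a positive and 4 a negative fold change, with a median log2 fold change of 0.03. Fosl1, an AP-1 subunit induced by sustained ERK activity, was at 0.794, 0.310 and 1.61 CPM in wild type and at 4.31, 2.12 and 3.83 CPM in Apln-/-. The groups did not overlap, and the log2 fold change was 1.91 ± 0.54 (SE) from 9 to 92 counts per library. The adjusted p of Fosl1 was 0.134 by edgeR and 0.00499 without the filter, and DESeq2 gave none. Fos, an immediate early gene that also responds to cell handling, was at 40.1, 61.6 and 77.0 CPM in wild type and at 99.5, 71.3 and 125.7 CPM in Apln-/-. Wild-type library 3 lay above Apln-/- library 2, and the log2 fold change was 0.73 ± 0.24, with an adjusted p of 0.193 by edgeR and 0.0483 by DESeq2. For Fos, Areg and Hbegf alike, wild-type library 1 was the lowest of the 6 and Apln-/- library 2 the lowest of its group. The part of cell handling in these values was not tested.

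**Figure D4:**
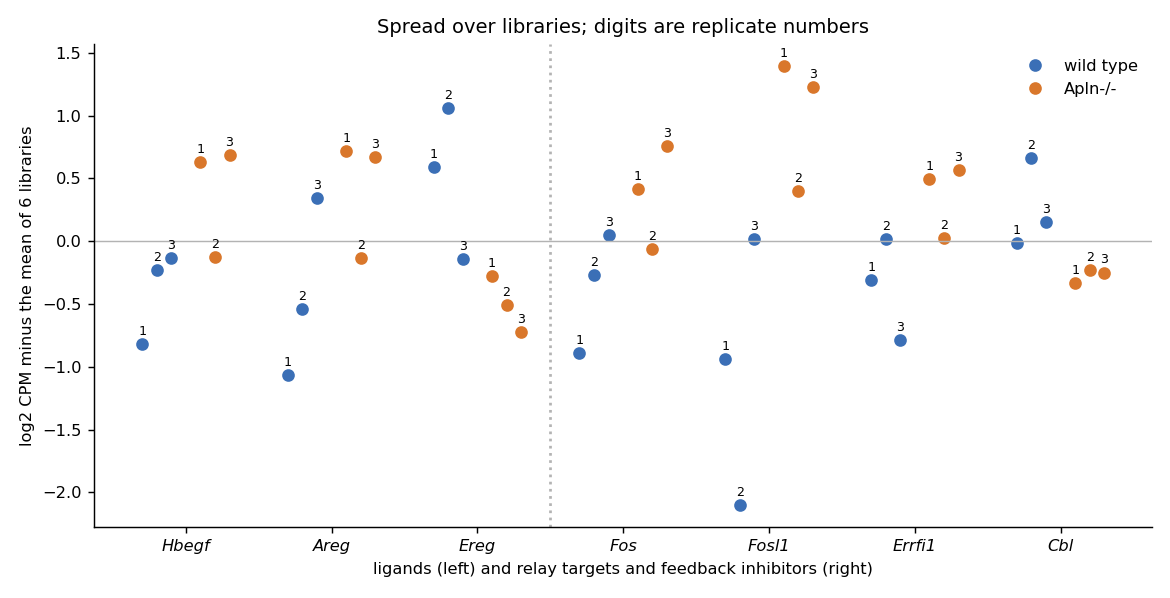
Log2 CPM minus the mean of the 6 libraries for 3 ligands and 4 relay targets or feedback inhibitors, by library (digits are replicate numbers). For Hbegf, Areg, Fos, Fosl1 and Errfi1 the Apln-/- libraries 1 and 3 are the highest of all 6, and Apln-/- library 2 lies below them. Fos and Fosl1, and Errfi1 and Cbl, are the 2 genes of lowest unadjusted p (edgeR) in their lists. Of the 8 tested ERK-responsive genes 4 had a negative fold change, among them Etv5 and Phlda1, which are not shown.

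Of the 15 tested genes of receptor endocytosis and sorting, 4 had a positive and 11 a negative fold change, with a median log2 fold change of -0.04. Dnm2, the dynamin that pinches off endocytic vesicles, was at 34.3, 41.7 and 39.7 CPM in wild type and at 23.9, 30.0 and 28.3 CPM in Apln-/-. The groups did not overlap, and the log2 fold change was -0.49 ± 0.16 (SE; adjusted p = 0.169 by edgeR). Epn1, an adaptor of clathrin-coated pits, had a log2 fold change of -0.70 ± 0.28, with overlapping groups and an adjusted p of 0.255 by edgeR, 0.0477 without the filter and 0.117 by DESeq2.

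**Figure D5:**
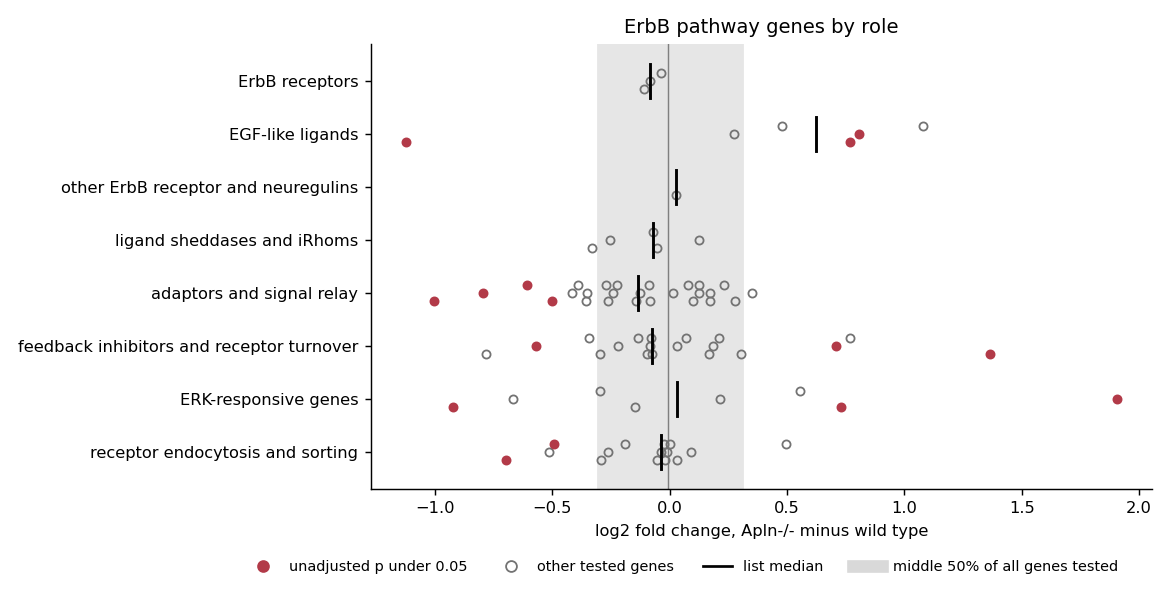
Log2 fold change (Apln-/- minus wild type) of each tested gene by role, with genes of unadjusted p under 0.05 filled, list medians as black bars and the middle 50% of all genes tested shaded. The 3 receptors lie inside the shaded range, and the ligands are spread from -1.12 for Ereg to 1.08 for Egf.

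The genes whose pattern over the 6 libraries was most like that of a receptor were found by the root mean square difference of log2 CPM, each gene centred on its own mean, among tested genes that varied at least as much as the receptor. Left out were the members and genes without a symbol or with a predicted, clone-based or pseudogene name. For Erbb2 the most alike were Fzd5 (0.0253 log2 units), Med14 (0.0434) and Eml4 (0.0437), where Erbb2 itself had an SD of 0.11. For Erbb3 they were Prpf39 (0.0383), Itga6 (0.0402) and Tob2 (0.0428), where Erbb3 had an SD of 0.0835. For Egfr they were Pdss2 (0.0417), Focad (0.0481) and Nfya (0.0529), where Egfr had an SD of 0.18. Likeness over 6 libraries among 10391 to 11758 candidate genes is a description of these libraries.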

How the data were processed

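RNA was measured in 3 wild-type and 3 Apln-/- samples of sorted crypt cells. Per the labels' protocols, an RNeasy Plus Micro extraction was followed by Ovation Pico WTA V2 amplification and Nextera DNA Flex libraries. The submitters' processing notes list STAR 2.6.1, HTSeq and mm10; the sources used here give neither annotation release nor strand setting. The deposited values are raw read counts per gene, not normalized by the authors, for 28564 Ensembl identifiers, of which 28551 matched GENCODE M21 (mm10) and 13 did not.

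Counts were tested in R 4.3.3 with edgeR 4.0.16: filterByExpr (count minimum 10, total minimum 15) left 15122 genes, libraries were TMM-scaled, and Apln-/- was compared with wild type (glmQLFit, glmQLFTest) with no covariate, with Benjamini-Hochberg adjustment over all genes tested and a threshold of 0.05. Intervals (95%) use the moderated degrees of freedom of that fit. Log2 CPM used a prior count of 2. Alternatives were RLE and upper-quartile scaling, leaving out the 5 most abundant entries, DESeq2 1.42.0, limma-voom (limma 3.58.1), other filters, a replicate block, a correction for length and GC content (splines with 5 degrees of freedom per library), and leaving out each library. Libraries of a group differed beyond sampling noise (chi-square per degree of freedom 8.32 to 61.2 over genes). The test was first tested on simulated data.

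The members, the gene lists and the rule for named genes were chosen with earlier results of these data known. Named are all members, the sort genes, and per list every gene past the test and the 2 of lowest p, plus the 3 genes most like each receptor. Libraries carry the replicate numbers of the sample titles; the count columns of Apln-/- replicates 2 and 3 are numbered 3 and 4.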

Additional observations from a re-analysis of the deposited data

How the results depend on the processing

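The number of genes past the test over all genes, 26 with all libraries, was 1 with RLE size factors, with upper-quartile scaling, without the 5 most abundant entries and with the length and GC correction. It was 56 with limma-voom, 117 when genes needed 1 CPM in 3 libraries, 581 with DESeq2 and 629 with no filter, and 0 to 358 with 1 library left out (358 without wild-type library 3, 1 without Apln-/- library 2 and 0 without any of the other 4). Whether replicate numbers pair the samples is not stated in the labels, and correlations this small cannot decide it. By the sample titles, r of deviations was 0.0109 to 0.0569 for same-numbered samples (0 of 3 over 0.1) and -0.0518 to 0.0169 for the others. By these titles 5 of 6 samples correlated best with their own number. By the numbers of the count columns wild-type 3 would go with Apln-/- 2 (r = -0.00994). With the replicate block 173 genes passed, or 28 with the block and the length and GC correction.

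The count of members past the test was 0 under every alternative except DESeq2 and no filter, where it was 1 (Hbegf, log2 fold change 0.79 and 0.81, adjusted p = 0.0390 and 0.00482). With the replicate block it was 0 too. Of 143 member values under alternatives, 9 changed sign, all of receptors. They were Egfr at 0.12 with the length and GC correction, 0.13 with the block added, 0.10 without wild-type library 2, 0.01 without Apln-/- library 1 and 0.02 without Apln-/- library 2. Erbb2 was at 0.0726 and Erbb3 at 0.0629 with that correction, and at 0.0689 and 0.0633 with the block added. Egfr was at -0.14 to 0.10 over the libraries left out. The median of the 3 receptors was 0.0726 and that of adaptors and signal relay -0.00758 with the correction. The median of feedback inhibitors was -0.14 to 0.21 with 1 library left out.

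Leaving out 1 library turned the log2 difference of Erbb2 to Egfr (range -0.19 to 0.0189), of Erbb3 to Egfr (-0.16 to 0.0502) and of Erbb3 to Erbb2 (-0.0248 to 0.10). With merged exon length, Hbegf was at 2.87 CPM per kb in wild type and 5.03 in Apln-/-, Tgfa at 0.887 and 1.07, and Egf at 0.0978 in Apln-/-. The groups of 1 member (Ereg) in place of 2 did not overlap under RLE, upper-quartile scaling or without the 5 most abundant entries. Checking the overlap under each of these scalings was chosen after seeing the data. Fewer than 35 counts per library limit what can be said of Egf, and 0 to 18 of Epgn.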
